A study of Sus scrofa with 12 samples.

Results

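The genes described here are the transporters that move cholesterol and plant sterols across the intestinal lining: ABCG5, ABCG8, NPC1L1, SCARB1 and ABCA1. They were measured in jejunal mucosa, the absorptive inner surface of the middle small intestine, of 12 pigs aged 140 days. All probe sets (groups of short probes for 1 transcript or part of it) carrying 1 of these 5 symbols in the platform annotation were taken, which gave 9 of 47722 non-control probe sets, and 5 of the 13755 named genes on the array. ABCG8 had 3 probe sets, SCARB1 and ABCA1 had 2 each, and ABCG5 and NPC1L1 had 1 each. The main value of a gene is its probe set of highest mean over the 12 arrays. All 9 were bright enough to be tested.

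The study compared 6 pigs labelled as having high feed efficiency with 6 labelled as having low feed efficiency, each group made up of 3 males and 3 females of the same age. Every pig gave 1 single-colour Affymetrix array of the Snowball pig design, and no treatment is named in the labels beyond the difference in feed efficiency. The sources used here do not state breed, diet or how efficiency was scored. Whole mucosa was used, so that fewer cells of a type and less RNA per cell cannot be told apart.

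Cholesterol enters the enterocyte, the absorptive cell of the villus, through NPC1L1 in the brush border. The ABC transporters ABCG5 and ABCG8 work only as a pair, in which each protein supplies 1 partner, and pump plant sterols and part of the cholesterol back into the gut lumen. Loss of either in humans causes sitosterolaemia, in which plant sterols accumulate. ABCA1 sits on the side facing the blood and loads cholesterol onto apolipoprotein A-I, forming high-density lipoprotein. SCARB1, the scavenger receptor SR-BI, binds lipoproteins and exchanges sterols in many tissues, the intestine included. In the RefSeq table of the assembly Sscrofa11.1, ABCG8 and ABCG5 are next to each other on the chromosome.

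Array medians lay between 4.02 and 4.16 log2 units, a scale on which signal doubles with each unit. The 69 background probe sets of the array had means from 1.21 to 7.70, with a median of 2.53. Of 13 enterocyte markers 10 were on the array under their symbols, and their mean per pig ran from 8.84 to 11.10. Ileal markers were low (FABP6, the ileal bile acid binding protein, had means of 4.63 in the high and 4.49 in the low group). The mean of 6 liver markers ran from 3.12 to 3.78 in the high and from 3.07 to 3.71 in the low pigs. Of these, ALB averaged 2.51 in the high and 2.73 in the low group, TTR 4.82 and 4.84, and SERPINA1, the highest, 6.42 and 6.38. One pig stood apart, the high feed efficiency male numbered replicate 1. Its enterocyte marker mean was 8.84, against 10.51 to 10.77 in the other high pigs and 9.97 to 11.10 in the low pigs. Its mean over 6 markers of stomach and duodenum was 8.13, against a median of 5.77 over the high pigs and at most 6.28 in the low pigs. In that pig TFF2, a peptide of gastric and duodenal glands, was at 13.41 and GKN1, a gastric surface protein, at 9.67. The main results are therefore also given without that pig.

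No gene of this group passed the test between high and low feed efficiency. ABCG8 came nearest: its signal was lower in the high pigs by 0.51 log2 units (standard error 0.182), a 1.42-fold difference. All 6 high pigs lay below the median of the low pigs, as they also did for NPC1L1. The share of all probe sets with that pattern was not counted. SCARB1, NPC1L1 and ABCG5 were also lower on average in the high pigs, each by less than the larger of its 2 group SDs. ABCA1 alone was higher, by 0.40. So 4 of the 5 genes had a lower mean in the high pigs, beside 57.2% of all 12630 genes tested. Over all 35791 probe sets tested with limma, 0% passed an adjusted p under 0.05 for feed efficiency, the smallest adjusted p was 0.502, and 2789 had an unadjusted p under 0.05.

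**Figure D1:**
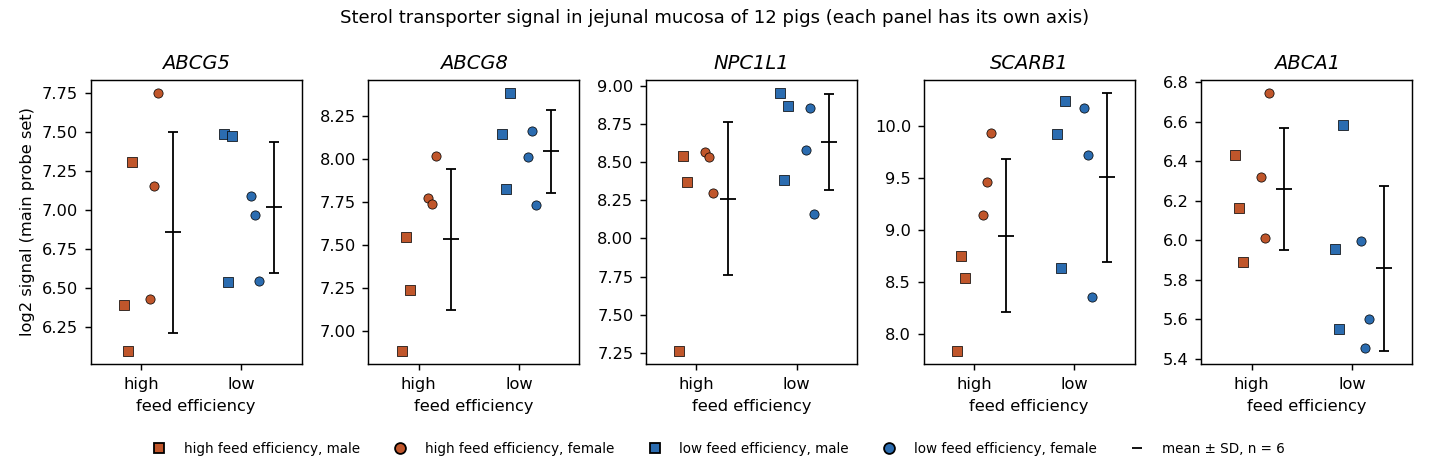
Log2 signal of the main probe set of each gene (vertical axes, one scale per panel) in high and low feed efficiency pigs, with squares for males, circles for females and bars for the mean ± SD of 6 pigs. For ABCG8 the 3 high feed efficiency males are the lowest points, at 6.88 to 7.54, and for NPC1L1 a single high male lies at 7.26, below all others.

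Efflux into the lumen was represented by ABCG5 and ABCG8. For the main ABCG8 probe set (SNOWBALL_005525_s_st) the high males had 6.88, 7.24 and 7.54 log2 units and the high females 7.73, 7.77 and 8.02. The low males had 7.82, 8.14 and 8.38 and the low females 7.73, 8.01 and 8.16. The groups overlapped only through the high females, and the 3 high males were the 3 lowest of the 12 pigs. The means were 7.53 ± 0.410 in high and 8.04 ± 0.240 in low pigs (SD, n = 6). The difference of -0.51 had a 95% confidence interval of -0.91 to -0.12, an unadjusted p of 0.0155 and a limma adjusted p of 0.624. Of the 5 genes, 1 (ABCG8) therefore had an unadjusted p under 0.05 on the lower side. Of all 12630 genes tested 4.38% did, and of all tested probe sets 3.98%. Without high replicate 1 the difference was -0.39 (standard error 0.163, limma adjusted p 0.391).

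The other ABCG8 probe sets did not give 1 common picture. SNOWBALL_005369_st ran from 6.47 to 7.87 in the high pigs, with a median of 7.23, and from 7.82 to 8.10 in the low pigs, with a median of 7.97. On this probe set 5 of 6 high pigs lay below all 6 low pigs, and the low pigs were close together, with an SD of 0.0997 against 0.561 in the high pigs. The share of all probe sets separated to that degree was not counted. Its difference was -0.77 (95% confidence interval -1.16 to -0.38, unadjusted p 0.00104, limma adjusted p 0.600), and -0.70 without high replicate 1. SNOWBALL_044506_st ran from 5.13 to 6.51 in high and from 5.46 to 6.67 in low pigs, so the groups overlapped over nearly their whole range. Its difference was -0.21 (95% confidence interval -0.81 to 0.40, limma adjusted p 0.873), and -0.03 without high replicate 1. The sources used here do not state which ABCG8 transcripts the 3 probe sets read.

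**Figure D2:**
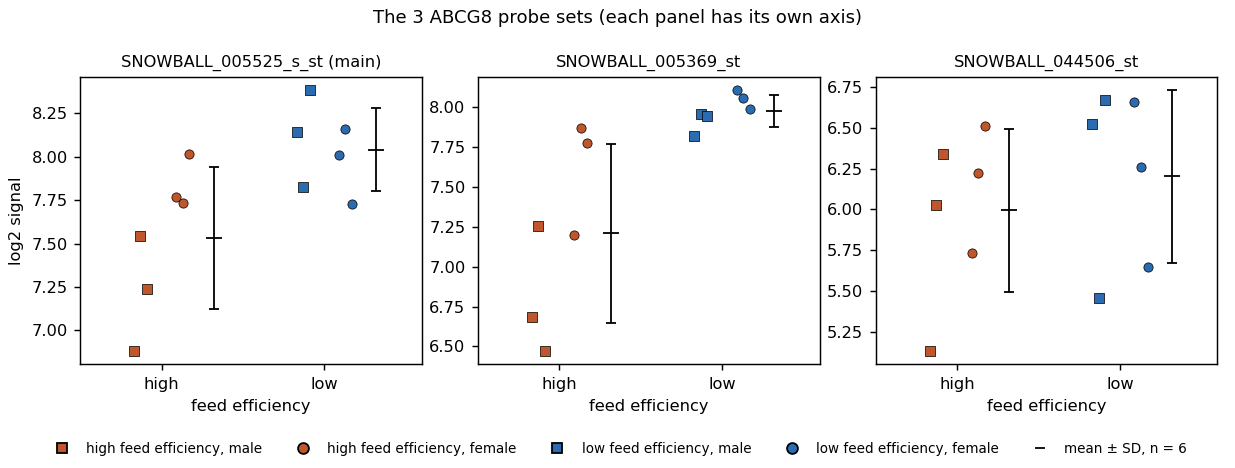
Log2 signal of the 3 ABCG8 probe sets (vertical axes, one scale per panel) by feed efficiency, with squares for males, circles for females and bars for the mean ± SD of 6 pigs. In the middle panel the 6 low pigs lie within 7.82 to 8.10 while the high pigs spread from 6.47 to 7.87, and in the right panel the groups overlap.

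Across pigs, the main ABCG8 probe set followed SNOWBALL_005369_st with a Pearson r of 0.832 (permutation adjusted p 0.0049) and SNOWBALL_044506_st with 0.666 (permutation adjusted p 0.0334). The Spearman rho was 0.580 and 0.664 (permutation adjusted p 0.101 and 0.0586). Between those 2 probe sets the r was 0.368 and the rho 0.245 (permutation p 0.24 and 0.442). Without the 2 pigs farthest from the median of the main probe set, high replicate 1 and low replicate 3, the first 2 values of r were 0.809 and 0.295. Within the 6 low pigs, where SNOWBALL_005369_st hardly varied, its r with the main probe set was -0.171, and within the 6 high pigs it was 0.836. For SNOWBALL_044506_st these values were 0.823 and 0.679.

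ABCG5, the partner of ABCG8, was measured by 1 probe set and did not pass the test. It ran from 6.09 to 7.75 log2 units in the high pigs (median 6.79) and from 6.53 to 7.48 in the low pigs (median 7.03). The high pigs included both the lowest values (6.09, 6.39 and 6.43) and the highest of all, 7.75 in the female numbered replicate 6. Means were 6.85 ± 0.643 in high and 7.01 ± 0.422 in low pigs (SD, n = 6). The difference of -0.16 had a 95% confidence interval of -0.80 to 0.48 (limma adjusted p 0.913), which includes the -0.51 of ABCG8. It was -0.07 without high replicate 1, and leaving out each pig in turn gave -0.35 (without high replicate 6) to -0.0041 (without high replicate 2). Whether ABCG5 and ABCG8 differed in their response was not tested.

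Uptake from the lumen was represented by NPC1L1, the target of the cholesterol-lowering drug ezetimibe. Its signal ran from 7.26 to 8.56 in the high pigs, with a median of 8.45, and from 8.16 to 8.95 in the low pigs, with a median of 8.71. Of the high pigs 5 lay between 8.30 and 8.56, within the range of the low pigs, and high replicate 1 lay below all others. Means were 8.26 ± 0.501 and 8.63 ± 0.314 (SD, n = 6), a difference of -0.37 with a 95% confidence interval of -0.87 to 0.13 (limma adjusted p 0.711). Without high replicate 1 it was -0.16 (standard error 0.156, limma adjusted p 0.697), so that this 1 pig moved the value by over 1.5 times.

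SCARB1 varied most between pigs in log2 units, with an SD over the 12 pigs of 0.796 for its main probe set, beside 0.409 to 0.525 for the main probe sets of the other 4 genes. The main probe set, SNOWBALL_016443_st, ran from 7.83 to 9.94 in the high pigs (median 8.95) and from 8.35 to 10.24 in the low pigs (median 9.82). The low pigs were split, with 4 between 9.72 and 10.24 and replicates 2 and 6 at 8.63 and 8.35. Means were 8.94 ± 0.738 and 9.51 ± 0.813 (SD, n = 6), a difference of -0.56 with a 95% confidence interval of -1.41 to 0.29 (limma adjusted p 0.736). It was -0.37 without high replicate 1 and -0.35 without low replicate 3, and -0.87 without low replicate 6 (standard error 0.315, unadjusted p 0.0179, limma adjusted p 0.654), each a shift of over 1.5 times. The second SCARB1 probe set, SNOWBALL_016506_s_st, had a difference of -0.37 (95% confidence interval -1.15 to 0.41), and it followed the first across pigs with a Pearson r of 0.955 and a Spearman rho of 0.944 (permutation adjusted p 0.00044 and 0.00066). Without the 2 pigs farthest from the median, that r was 0.916.

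ABCA1, the exporter on the blood side, was the one gene of higher mean in the high pigs. Its main probe set (SNOWBALL_003396_st) ran from 5.89 to 6.75 in the high pigs, with a median of 6.24. In the low pigs it ran from 5.46 to 6.58, with a median of 5.78. All 6 high pigs lay above the low median, while low replicate 3, at 6.58, lay above 5 of the high pigs. The share of all probe sets with all 6 high pigs above the low median was not counted. Means were 6.26 ± 0.309 and 5.86 ± 0.418 (SD, n = 6), a difference of 0.40 or 1.32-fold, with a 95% confidence interval of -0.05 to 0.85 and a limma adjusted p of 0.665. It was 0.37 without high replicate 1 and 0.56 without low replicate 3 (unadjusted p 0.00953, limma adjusted p 0.799). The other ABCA1 probe set ran from 2.49 to 3.31 over all pigs, close to the background median of 2.53, and had a difference of 0.13 (limma adjusted p 0.854). ABCA1 is also made by macrophages. The mean of 7 macrophage markers ran from 5.90 to 6.82 in high and from 5.93 to 6.90 in low pigs. Of these 7 markers 6 were lower in the high group, beside 57.2% of all genes tested, and 0 passed the adjusted threshold. Their part in the ABCA1 value was not tested.

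**Figure D3:**
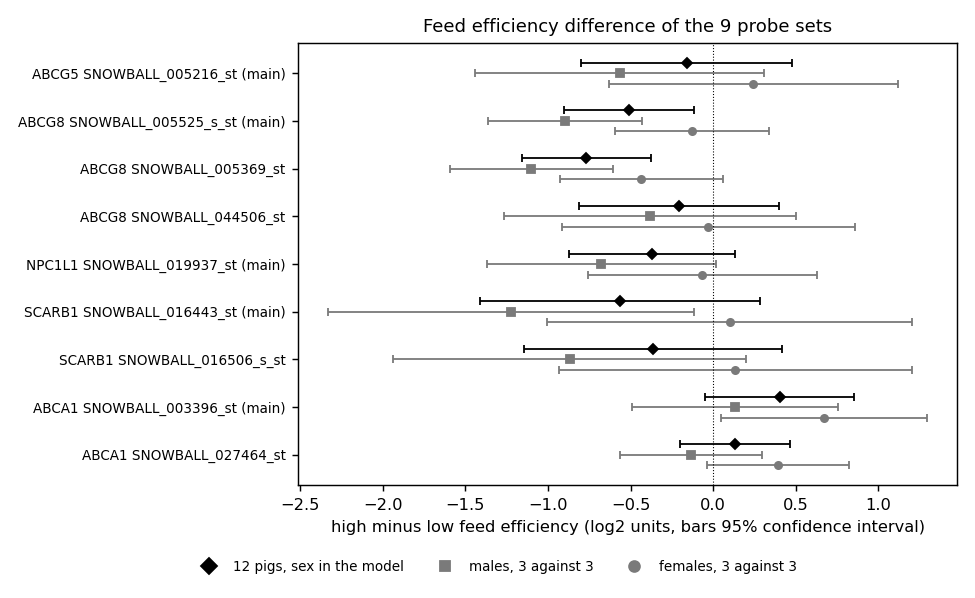
High minus low feed efficiency difference (horizontal axis, log2 units) of each of the 9 probe sets, with diamonds for the fit over 12 pigs, squares for males, circles for females and bars for the 95% confidence interval. Over 12 pigs the interval lies wholly below 0 for the ABCG8 probe sets SNOWBALL_005525_s_st and SNOWBALL_005369_st, and in males SCARB1 has the lowest value, -1.22.

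The difference between efficiency groups was then taken within each sex, with 3 pigs against 3. In males ABCG8 averaged 7.22 ± 0.331 in high and 8.12 ± 0.281 in low pigs (SD, n = 3), a difference of -0.90 with a 95% confidence interval of -1.36 to -0.43. All 3 high males lay below all 3 low males, as they did for 6.81% of all tested probe sets. In females the 2 ABCG8 means were 7.84 ± 0.154 and 7.97 ± 0.218, a difference of -0.13 with an interval of -0.59 to 0.34, and the groups overlapped. The difference of these differences (the interaction) was -0.77 (standard error 0.300, unadjusted p 0.0260, limma adjusted p 0.743). ABCG8 was the 1 gene of the 5 with an unadjusted p under 0.05 for the interaction, where 6.69% of all probe sets had one and 0% passed after adjustment. That p was 0.0622 without high replicate 1 (interaction -0.60), and it was also above 0.05 without high replicate 6, low replicate 3 or low replicate 6. The interaction was -0.46 (unadjusted p 0.102) with the enterocyte marker mean as covariate and -0.60 (unadjusted p 0.103) over the mean of the 3 probe sets. SNOWBALL_005369_st gave -1.10 in males and -0.43 in females, and SNOWBALL_044506_st gave -0.38 and -0.03.

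SCARB1 differed by -1.22 in males (95% confidence interval -2.33 to -0.12) and by 0.10 in females (-1.01 to 1.21), with an interaction of -1.32 (standard error 0.713, limma adjusted p 0.759). NPC1L1 differed by -0.68 in males and -0.07 in females, and ABCG5 by -0.57 and 0.24. For ABCA1 the larger value was in females, 0.67 (95% confidence interval 0.05 to 1.30), beside 0.13 in males. All 3 high females, at 6.01, 6.32 and 6.75, lay above all 3 low females, though the lowest high female was only just above the highest low one. This was so in this direction for 6.36% of probe sets. An unadjusted p under 0.05 was reached in males by ABCG8 and SCARB1 on the lower side, where 4.79% of probe sets reached it, and in females by ABCA1 on the higher side, where 2.79% did. In neither sex did any of the 5 genes pass after adjustment (limma adjusted p 0.327 to 0.931 in males and 0.824 to 0.970 in females), nor did any other probe set (0%), while 3121 in males and 1947 in females had an unadjusted p under 0.05. Without high replicate 1 the values in males were -0.73 for ABCG8, -0.95 for SCARB1, -0.28 for NPC1L1, -0.46 for ABCG5 and -0.0033 for ABCA1, and the unadjusted p of SCARB1 was then 0.118.

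Males and females were also compared over both efficiency groups, where 6 probe sets or 0.0168% passed. None of the 5 genes was among them. ABCG8 averaged 7.67 ± 0.562 in males and 7.90 ± 0.182 in females (SD, n = 6), a difference of -0.23 (limma adjusted p 0.683), and SCARB1 8.99 ± 0.912 and 9.46 ± 0.653, a difference of -0.48 (limma adjusted p 0.698). ABCG5, NPC1L1 and ABCA1 differed by -0.11, -0.10 and 0.07. Males were more spread out than females for ABCG8, SCARB1, NPC1L1 (SD 0.606 and 0.241) and ABCG5 (0.611 and 0.475), and less for ABCA1 (0.378 and 0.471). High replicate 1 was among the males. These SDs pool both efficiency groups, so they also hold the difference between groups within a sex. Within high and low pigs the ABCG8 SD was 0.331 and 0.281 in males and 0.154 and 0.218 in females (n = 3).

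The 5 genes were next set against each other across the 12 pigs, as a family of 22 correlations that also held their probe sets and an enterocyte marker mean. Of the 10 pairs of genes 8 had a positive Pearson r and 4 passed a permutation test after adjustment over the family. ABCG8 and SCARB1 were the closest pair, with r of 0.872 (permutation adjusted p 0.00066) and rho of 0.853 (permutation p 0.00073). This pair had r of 0.766 without the 2 pigs farthest from the ABCG8 median (permutation p 0.00915), 0.972 within the high pigs, 0.873 within the low pigs and 0.813 without high replicate 1 (permutation adjusted p 0.0196). It was the 1 pair of the 10 that passed without that pig.

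ABCG8 with NPC1L1 had r of 0.825 and rho of 0.734 (permutation adjusted p 0.0049 for r), and NPC1L1 with SCARB1 had 0.760 and 0.727 (permutation adjusted p 0.0049 for r), and for both pairs the adjusted p of rho was 0.0302. Without the 2 farthest pigs these 2 values of r were 0.536 and 0.630 (permutation p 0.109 and 0.0532). Both relations thus rest in part on those pigs, high replicate 1 among them. Without that pig alone the 2 values were 0.633 and 0.658. Within the low pigs they were 0.907 and 0.844, and within the high pigs 0.744 and 0.675. After removing group and sex means they were 0.804 and 0.720 over the 12 pigs. ABCG5 with SCARB1 had r of 0.705 and rho of 0.636 (permutation adjusted p 0.028 and 0.0662), and r was 0.703 without the 2 farthest pigs. ABCG5 with NPC1L1 had r of 0.409 and rho of 0.287 (permutation adjusted p 0.273 and 0.505), and r was 0.662 without the 2 farthest pigs, high replicates 2 and 6 (permutation p 0.0169). Within the low pigs it was 0.881 and within the high pigs 0.177. ABCG5 and ABCG8, the obligate partners, had r of 0.518 and rho of 0.573 for the main probe sets (permutation adjusted p 0.154 and 0.101), which did not pass, and r was 0.495 without the 2 farthest pigs. It was 0.886 within the 6 low pigs and 0.420 within the 6 high pigs, and whether these differ was not tested.

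The relation of ABCG5 to ABCG8 varied with the ABCG8 probe set. With SNOWBALL_044506_st, r was 0.787 and rho 0.783 (permutation adjusted p 0.00764 and 0.0162). That r was 0.911 without the 2 farthest pigs and 0.778 after removing group and sex means. With SNOWBALL_005369_st, r was 0.274 and rho 0.119 (permutation p 0.387 and 0.717). Here r was 0.191 without the 2 farthest pigs and 0.212 after removing group and sex means. No pair with ABCA1 passed: its r with ABCG5, ABCG8, NPC1L1 and SCARB1 was 0.272, -0.037, -0.211 and 0.224 (permutation p 0.388, 0.911, 0.53 and 0.479), and its rho 0.140, -0.007, -0.098 and 0.301 (permutation p 0.667, 0.991, 0.766 and 0.343). Within the low pigs these 4 values of r were 0.765, 0.704, 0.458 and 0.673, over 6 pigs. After removing group and sex means they were 0.436, 0.528, 0.034 and 0.595 over the 12 pigs (permutation adjusted p 0.205, 0.116, 0.919 and 0.0701).

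**Figure D4:**
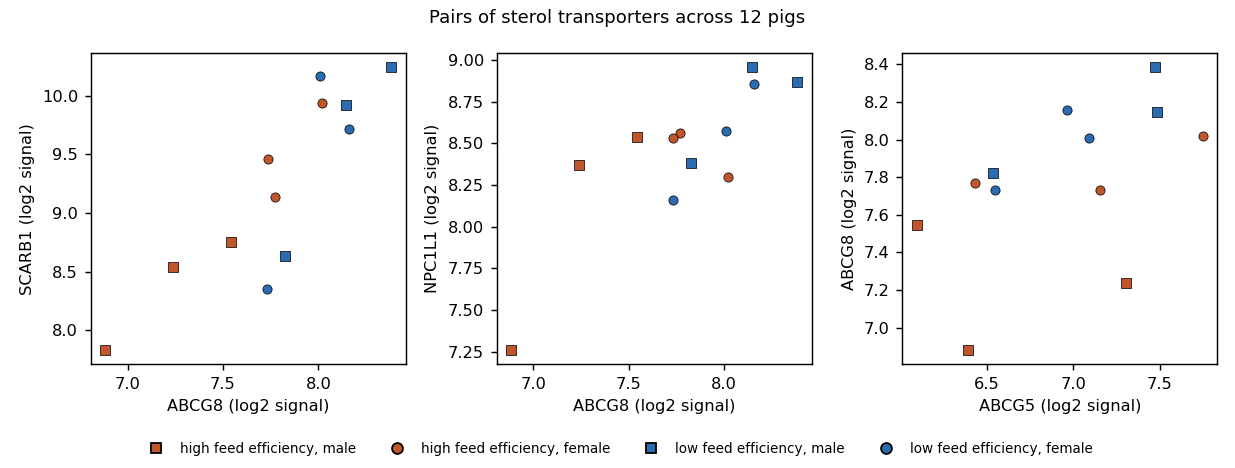
Log2 signal of 2 genes against each other (both axes) in the 12 pigs, with squares for males, circles for females and colours for feed efficiency. ABCG8 and SCARB1 (left, r 0.872) lie along a band, in the middle panel 1 high male lies far below the rest, and ABCG5 and ABCG8 (right, r 0.518) scatter more.

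For 3 of the 5 genes (NPC1L1, SCARB1 and ABCG8) the signal followed that of the enterocyte markers, among them the microvillus protein VIL1, the fatty acid binding protein FABP2 and the disaccharidase SI. VIL1 was the 1 marker not lower in the high pigs, with means of 10.63 in high and 10.58 in low pigs. Of the 10 marker genes 9 were lower in the high pigs, beside 57.2% of all genes tested, and 0 passed. That count includes high replicate 1, and no count without that pig is given. The marker mean ran from 8.84 (that pig) to 10.77 in the high pigs, with a median of 10.66. In the low pigs the marker mean ran from 9.97 to 11.10, with a median of 10.72. NPC1L1 followed this mean most closely, with r of 0.939 and rho of 0.846 (permutation adjusted p 0.000953 and 0.0066), SCARB1 had 0.753 and 0.804 (permutation adjusted p 0.00275 and 0.0133), and ABCG8 0.746 and 0.643 (permutation adjusted p 0.0209 and 0.0662). Without the 2 farthest pigs, high replicate 1 and low replicate 6, r was 0.693, 0.565 and 0.494 (permutation p 0.0264, 0.0912 and 0.147), so for SCARB1 and ABCG8 the test no longer passed and the relation rests in part on those pigs. Without high replicate 1 alone the 3 values were 0.773, 0.681 and 0.415 (permutation adjusted p 0.0212, 0.0416 and 0.296). ABCG5 and ABCA1 had r of 0.464 and -0.032 and rho of 0.427 and 0.273 (permutation p for r 0.119 and 0.928, for rho 0.17 and 0.391). Within the 6 low pigs r was 0.902 for NPC1L1, 0.891 for SCARB1, 0.824 for ABCG8, 0.905 for ABCG5 and 0.617 for ABCA1. Within the 6 high pigs these values were 0.973, 0.712, 0.775, 0.284 and -0.220. The 3 genes are thus not set apart from ABCG5 within the low pigs. With the marker mean as a covariate the efficiency difference was -0.39 for ABCG8, -0.30 for SCARB1, -0.18 for NPC1L1, -0.05 for ABCG5 and 0.43 for ABCA1, and none passed.

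**Figure D5:**
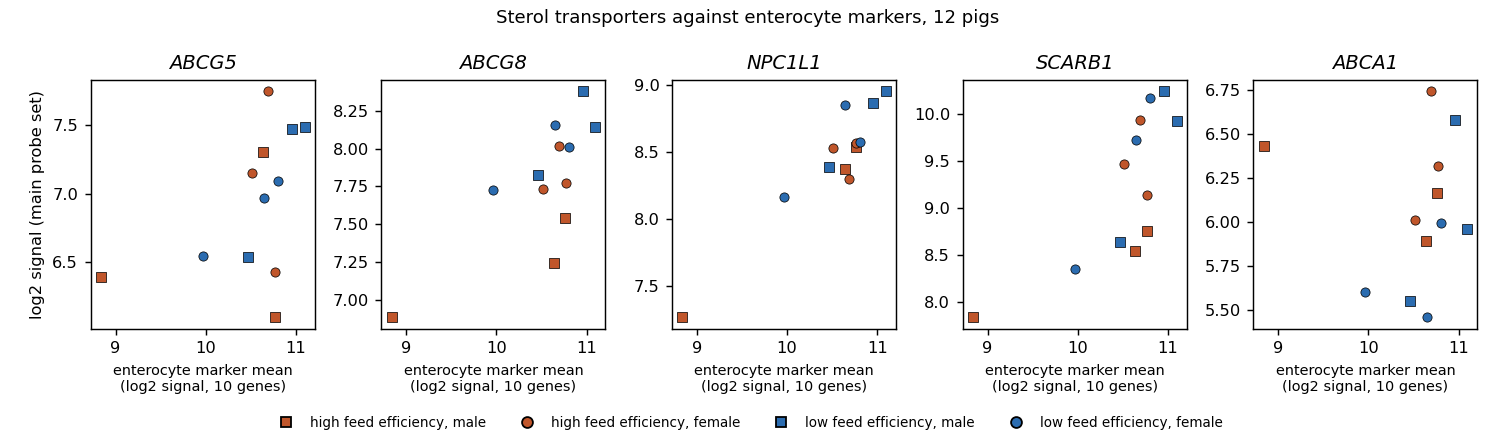
Log2 signal of each gene (vertical axes) against the mean log2 signal of 10 enterocyte markers (horizontal axes) in the 12 pigs, with squares for males, circles for females and colours for feed efficiency. The isolated point at a marker mean of 8.84 is high feed efficiency replicate 1, which is the lowest pig for ABCG8, NPC1L1 and SCARB1 and not for ABCG5 or ABCA1.

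The genes whose signal followed each transporter most closely were listed by Pearson r over the 12 pigs, 3 per transporter. For NPC1L1 they were SLC27A4, a fatty acid transport protein of enterocytes (r 0.959), PLEKHG6 (0.957) and GRTP1 (0.943). For SCARB1 they were the ubiquitin ligase CBLC (0.961), the nucleotidase ENTPD5 (0.947) and the receptor-like protein GPR155 (0.947). For ABCG8 they were CYP3A29 (0.950) and CYP3A46 (0.937), drug-metabolizing cytochromes of a family of near-identical copies whose probe sets may share signal, and the phospholipid enzyme CDS1 (0.936). For ABCG5 they were BEX5 (0.937), the deadenylase CNOT6L (0.886) and the glycolytic regulator PFKFB2 (0.886). For ABCA1 they were MFAP3L (0.944), the adaptor protein PAG1 (0.874) and BHLHB9 (0.869). These are the highest of 21967 named probe sets and are given as a description.

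A wider list of 69 sterol genes gave 59 tested genes, of which 37 were lower and 22 higher in the high pigs, with a median difference of -0.06, beside 57.2% lower and a median of -0.03 over all 12630 genes tested. None passed over all probe sets. Of the 59, 7 had an unadjusted p under 0.05 on the lower side and 1 on the higher side, where 4.38% and 2.8% of all genes did. Without high replicate 1, 30 of the 59 were lower. The shares over all genes and the counts by unadjusted p are given only with that pig included.

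Among 16 partners of uptake and intracellular sterol movement, 10 were lower. NPC1, which releases cholesterol from lysosomes, averaged 6.90 in high and 7.28 in low pigs (difference -0.38, standard error 0.142). The membrane protein CAV1 differed by -0.39 and the sterol carrier GRAMD1B by -0.24. Among 12 genes of esterification and lipoprotein assembly 7 were lower. APOE, an apolipoprotein that accepts cholesterol from ABCA1, was the 1 gene of the list higher at an unadjusted p under 0.05, with means of 6.51 and 6.13 (difference 0.37, standard error 0.106). The lysosomal lipase LIPA differed by -0.39 and the carboxylesterase CES1 by 0.30.

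Among 8 other efflux and bile acid genes 5 were lower. The pump ABCG2 differed by -0.72 (standard error 0.229), the pump ABCC2 by -0.82 (standard error 0.287) and ABCA7 by 0.15. High pigs were more spread out for both pumps, with an SD of 0.767 against 0.258 in low pigs for ABCG2 and 0.946 against 0.270 for ABCC2. Values of these genes without high replicate 1 are not given. Of 22 sensors and transcription factors 17 were tested and 10 were lower, with GATA4, a factor of proximal intestine, at -0.24, and the lipid-sensing receptors PPARA at -0.25 and PPARG at -0.47. Of 11 genes of cholesterol synthesis and LDL uptake 6 were tested and 5 were lower, led by DHCR7 (-0.19), SQLE (-0.28) and CYP51A1 (-0.10), none with an unadjusted p under 0.05.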

How the data were processed

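Per the labels' protocols, total RNA was isolated by Qiazol and column purification with a DNase step, copied with the Ambion WT kit, biotin-labelled and hybridized to 1 array per pig. The authors deposited log2 values for each probe set. GCOS 1.1.1 is named in the submitters' processing notes, and the sources used here do not state the background correction, summarization or normalization. The values were used as deposited. The 123 control probe sets and those with a mean at or below the 25th percentile (2.29) were left out, and 35791 were fitted with limma 3.58.1 (R 4.3.3): feed efficiency and sex as additive terms, and the 4 sex-by-group means for the interaction and within-sex differences, with Benjamini-Hochberg adjustment over all of them and a threshold of 0.05. Correlations had two-sided permutation tests with 100000 resamples, adjusted over the 22 computed for r and for rho alike. Genes have the platform's symbols. Precision is limited by there being 12 arrays, with a median standard error of 0.169 for feed efficiency.

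The genes, the related lists and the tests were chosen with earlier results of these data known. Named genes are the 5 transporters, the 3 of highest r with each, and at most 3 per role of the sterol list by the smallest p. Marker genes named for a tissue or a cell type are examples from their lists. The fits were tested on simulated data. Alternatives were other normalizations, covariates, filters, array weights, variance priors, probe set averages and leaving out each pig.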

Additional observations from a re-analysis of the deposited data

Results flagged for a closer look

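In groups of 6 pigs, the gap between the lowest or highest pig and its neighbour was compared with the whole range of the group, in 20 groups (9 probe sets and the enterocyte marker mean, each in both efficiency groups). Chance flags about 1 in 20 such groups, and 2 stood out, both for the high feed efficiency male numbered replicate 1. Its NPC1L1 signal was 7.26 log2 units, where the other 5 high pigs lay between 8.30 and 8.56, a gap of 0.795 of the range. Its enterocyte marker mean was 8.84, where the others lay between 10.51 and 10.77, a gap of 0.868 of the range. The part of these markers in its NPC1L1 value was not tested.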

How the results depend on the processing

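The 5 efficiency, 5 sex and 5 interaction differences were recomputed under 320 combinations of result and alternative. None passed the adjusted threshold (smallest limma adjusted p 0.300), and 311 kept their direction. Many of these could not turn, because other filters and variance priors leave the difference itself unchanged. So does dropping the sex term in this balanced design, and averaging probe sets for ABCG5 and NPC1L1, which have 1 each. The 311 is therefore no measure of stability. Of the 9 that turned, 8 were sex differences and 1 an interaction. For males minus females, NPC1L1 was 0.020 with quantile normalization, 0.055 with array weights and -0.22 to 0.11 leaving out 1 pig; ABCG5 was -0.23 to 0.078 leaving out 1 pig; ABCA1 was -0.11 over the mean of its probe sets and -0.079 to 0.19 leaving out 1 pig. The NPC1L1 interaction, -0.61 with no covariate, was 0.0092 with the enterocyte mean as covariate. Chosen after seeing the data, the NPC1L1 difference in females was 0.0066 with quantile normalization, and that of ABCA1 in males was -0.0033 without high replicate 1. The efficiency difference ran from -0.61 to -0.39 for ABCG8, -0.49 to -0.16 for NPC1L1, -0.87 to -0.30 for SCARB1, -0.35 to -0.0041 for ABCG5 and 0.27 to 0.56 for ABCA1 over the alternatives.

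Leaving out 1 pig, 1 to 5 pairs of genes passed the correlation test (1 without high replicate 1, 4 with all pigs), and r ran from 0.429 to 0.687 for ABCG5 with ABCG8, which passed without high replicate 3. For ABCA1, r ran from -0.268 to 0.228 with ABCG8, -0.379 to 0.060 with NPC1L1 and -0.148 to 0.496 with the enterocyte mean. After removing group and sex means these were 0.528, 0.034 and 0.130, and the last was 0.025 with quantile normalization. The cause was not tested. ABCG5 with SCARB1 no longer passed without high replicate 1 or 6 or low replicate 1 or 3 (r 0.664 to 0.678).

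No paired analysis was possible because the labels give no replicate numbers shared between groups. Without sequences or probe positions, which transcripts the probe sets read was not examined.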
